A study of Rattus norvegicus with 9 samples.

Results

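The P2X and P2Y receptors are the cell-surface receptors for extracellular nucleotides. Members were the 10 genes of the deposited gene table whose symbol was P2rx2, P2rx3, P2rx4, P2rx5, P2rx6, P2rx7, P2ry1, P2ry2, P2ry12 or P2ry14, out of 20194 genes in all. Of these, 6 were P2X and 4 were P2Y genes. By name they comprised a neuronal receptor (P2rx3) and macrophage-type receptors (P2rx4, P2rx7 and P2ry12) among others. The rule itself used gene symbols and no measured value. The members, lists and tests were, however, chosen with earlier results of these data known. All 10 reached an FPKM (read fragments scaled to transcript length and library size) of 1 or more in some library and were tested.

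RNA was sequenced from dorsal root ganglia (DRG), which hold the cell bodies of the sensory neurons, of male Sprague Dawley rats aged 8 to 10 weeks, in 3 sham, 3 SNI and 3 SNI + G15 libraries. Ganglia came from lumbar levels 4 to 6 on the operated side. Spared nerve injury (SNI) cuts branches of the sciatic nerve and leaves a branch intact, and sham rats had surgery without the nerve lesion. G15, an antagonist of the G protein-coupled oestrogen receptor GPER, was injected intrathecally at 1.8 μg/μl in 1 μl on day 5 after SNI. The labels give 24 h of injection and 2% DMSO as its solvent. The paper states other DMSO shares, for its drugs and for the vehicle of its behavioural tests of G15. It names no vehicle for the sequenced groups. The titles call the sham and SNI libraries controls of G15. The labels place the catheter on day 5 after SNI in a protocol that is the same for every library, and they name no vehicle injection for SNI or sham. G15 and the injection of its solvent therefore cannot be told apart, nor can the catheter in comparisons with sham, for which it is not specified. The paper takes day 5 after SNI for both sampling and drug intervention, and gives no separate harvest day for SNI + G15. With 24 h of injection, time since injury may differ between SNI and SNI + G15, and it cannot be told apart from G15 either. Whole ganglia mix neurons with glia, vessels and immune cells. The paper's methods describe sequencing of DRG from 3 rats in the groups, whereas its animal list gives 6 per group and 18 in all. These numbers differ, and how rats were assigned to the 3 libraries of a group is not stated. The p-values therefore measure the spread between these libraries.

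ATP released by damaged or active cells opens P2X receptors, which are trimeric cation channels, whereas P2Y receptors couple ATP, ADP, UTP or UDP-glucose to G proteins. In sensory ganglia P2X3, alone or with P2X2, depolarizes small nociceptors, many of them of the non-peptidergic class. P2X4, P2X7 and P2Y12 are best known from macrophages and microglia in pain research, where P2X4 is linked to release of brain-derived neurotrophic factor and P2X7 to the inflammasome. Enzymes on the cell surface then degrade ATP to adenosine, which acts on receptors of its own.

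Libraries held between 18484557 and 18756736 estimated reads. The DRG identity of the samples was borne out by neuronal markers, whose summed FPKM lay between 16600 and 19200 with none of the 14 at 0. Within sham and within SNI, the squared difference between libraries was 2.65 to 5.05 times the counting variance, and it was 3.25 times between SNI + G15 replicates 1 and 2. SNI + G15 replicate 3 stood apart at 9.25 and 9.58 times, and the receptors of that group are given also without it. The comparisons share libraries: SNI + G15 was set against both SNI and sham, and SNI was in the first pair and the second.

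In sham ganglia P2rx3 was by far the most abundant of the receptors. Its level was 150 ± 5.24 FPKM (SD, n = 3), which was 66.8 ± 1.03% of the summed FPKM of all 10 receptors. P2rx4 followed with 20.9 ± 0.266 FPKM and P2rx6 with 15.3 ± 0.546 FPKM. P2ry2 (8.66 ± 0.46 FPKM), P2ry1 (8.60 ± 0.443 FPKM) and P2rx5 (8.05 ± 0.0907 FPKM) came next. The libraries of P2ry2 and P2ry1 overlapped, as did those of P2ry1 and P2rx5, whereas P2ry2 lay above P2rx5 in all libraries. Below them stood P2rx2 (5.22 ± 0.682 FPKM), P2rx7 (3.91 ± 0.287 FPKM), P2ry12 (2.17 ± 0.5 FPKM) and P2ry14 (1.44 ± 0.112 FPKM), in steps without overlap. Seen against all 14305 tested genes, P2rx3 lay above 96.2% of them in sham and P2ry14 above 11.9%.

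After SNI the top and the bottom of this order were as before, and the middle was rearranged. P2rx2 moved from rank 7 to rank 3, at 8.61 ± 0.344 FPKM, level with P2rx6 at 8.31 ± 0.685 FPKM. The libraries of P2rx2 and P2rx6 overlapped, as did those of P2rx6 and P2ry1, P2ry1 and P2ry2, and P2ry2 and P2rx7. P2rx5 fell below P2rx7 without overlap. In SNI + G15, P2rx3, P2rx4 and P2rx2 were again the first 3, and P2rx5, P2ry12 and P2ry14 the last 3.

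**Figure D1:**
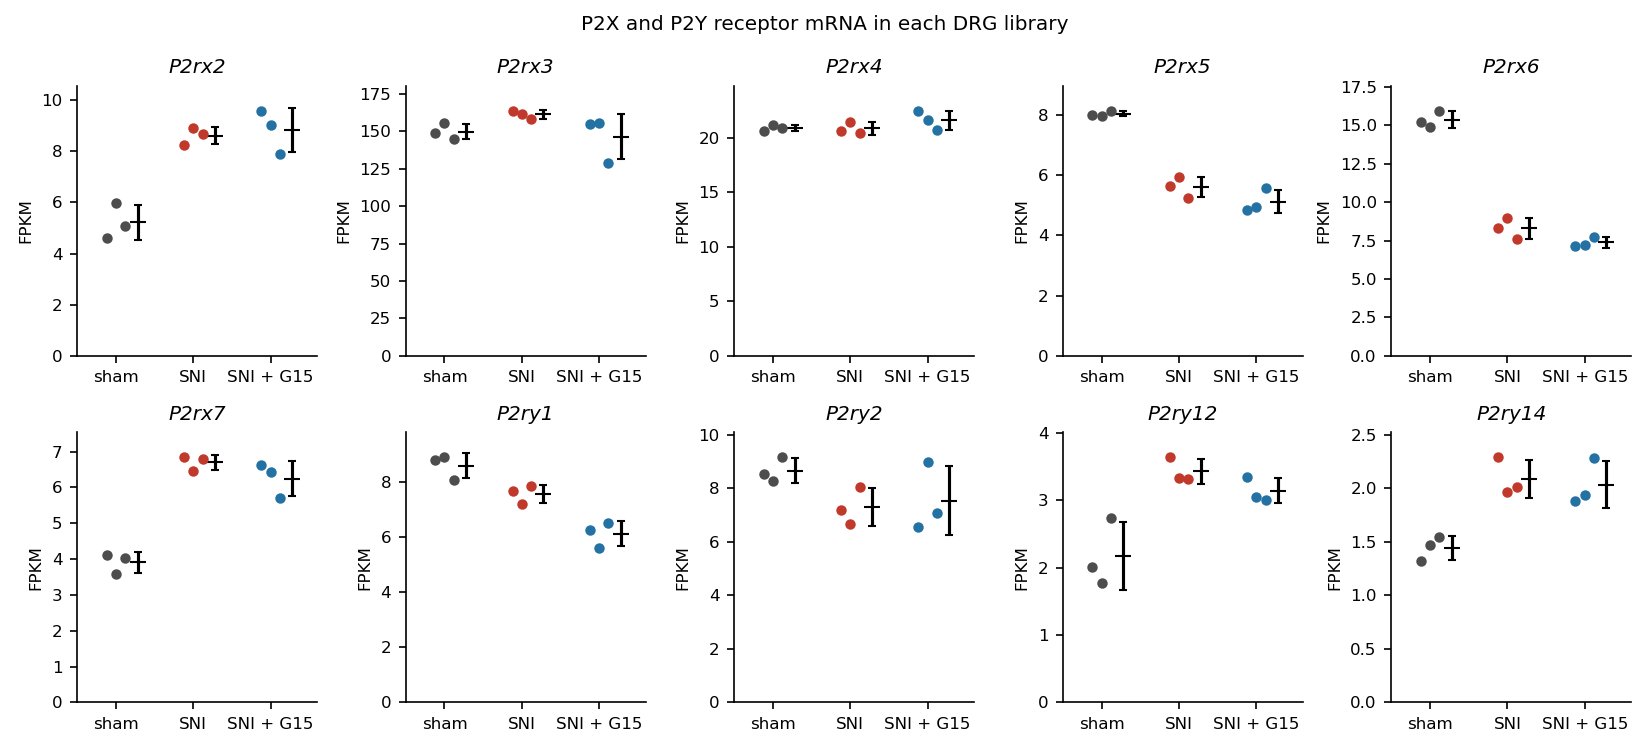
FPKM (vertical axis, from 0, scaled for each receptor) of the 10 receptors in the sham, SNI and SNI + G15 libraries. Each point is 1 library, and the black mark with its bar is the mean with SD of 3 libraries. P2rx6 fell from about 15.3 to 8.31 FPKM after SNI, P2rx7 rose from 3.91 to 6.70, and P2rx4 stayed within 20.46 to 22.51 FPKM in all libraries.

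The first comparison asked how receptor mRNA differed between injured and sham ganglia. P2rx2, P2rx7, P2ry12 and P2ry14 rose, P2rx5, P2rx6, P2ry1 and P2ry2 fell, and the call was not made for P2rx3 and P2rx4. Thus 4 of 10 receptors were called higher and 4 called lower by edgeR (quasi-likelihood test, adjusted p under 0.05). Of all 14305 tested genes, 23.3% were called higher and 22.4% lower. The libraries of the groups did not overlap for 9 of 10 receptors, 5 higher and 4 lower, where 53.9% of all tested genes showed no overlap. The median log2 fold change was 0.022 over the 10 receptors and 0.001 over all tested genes. In whole tissue, fewer cells of a type and less RNA per cell cannot be told apart.

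P2rx3 and P2rx2 encode the pore-forming subunits that can assemble together in nociceptors. P2rx3, the main ATP-gated channel of small sensory neurons, read 148.87, 155.31 and 144.92 FPKM in sham and 163.75, 161.63 and 157.95 in SNI. Every SNI library was above every sham library, but the step was small, with a log2 fold change of 0.08 (SE 0.0351, adjusted p = 0.0998 in edgeR). P2rx2, whose product joins P2X3 in heteromeric channels, read 4.62, 5.96 and 5.07 FPKM in sham and 8.24, 8.92 and 8.67 in SNI. All SNI libraries of P2rx2 were also higher, with a log2 fold change of 0.66 (SE 0.0959, adjusted p = 0.000258). The FPKM of P2rx3 over that of P2rx2 accordingly dropped from 29.0 ± 3.1 in sham to 18.7 ± 0.985 in SNI (SD, n = 3), without overlap between the libraries. For P2rx3 the adjusted p ranged from 0.0215 to 0.387 over 15 alternative analyses and was below 0.05 only without sham replicate 2, at 0.0215.

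P2rx6 and P2rx5 fell. P2rx6, whose product forms channels mainly together with other P2X subunits, showed the widest change of the 10. It read 15.19, 14.89 and 15.95 FPKM in sham against 8.32, 8.99 and 7.62 in SNI, a log2 fold change of -0.92 (SE 0.0674, adjusted p = 1.71e-06). The lowest sham library was well above the highest SNI library. P2rx5, another P2X subunit of sensory neurons, read 8.01, 7.98 and 8.15 FPKM in sham and 5.65, 5.93 and 5.26 in SNI. Its log2 fold change was -0.55 (SE 0.0649, adjusted p = 5.74e-05), again without overlap. Estimated counts of P2rx6 were not whole in any of the 9 libraries, nor those of P2rx7 in 6 and of P2ry2 in 8, so some of their reads may have been divided with other features.

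The macrophage-type receptors did not move together. P2rx7, the ATP-gated channel that drives inflammasome activation in myeloid cells, read 4.12, 3.58 and 4.02 FPKM in sham and 6.85, 6.46 and 6.79 in SNI. That was a 1.68-fold rise (log2 fold change 0.75, SE 0.0676, adjusted p = 7.57e-06) with no overlap. P2ry12, the ADP receptor of microglia and platelets, read 2.01, 1.77 and 2.73 FPKM in sham and 3.64, 3.33 and 3.31 in SNI. It rose 1.52-fold (log2 fold change 0.60, SE 0.133, adjusted p = 0.00388), and sham replicate 3 was the sham library nearest to SNI. P2rx4, a P2X channel of lysosomes and of the surface of activated microglia, read 20.65, 21.18 and 20.95 FPKM in sham and 20.64, 21.50 and 20.46 in SNI. Its libraries overlapped throughout, and its log2 fold change of -0.03 (SE 0.0461, adjusted p = 0.579) was smaller than its standard error. P2rx4 over P2rx7, both in FPKM, fell from 5.38 ± 0.475 in sham to 3.12 ± 0.182 in SNI.

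P2rx4 and P2rx7 are neighbouring genes on rat chromosome 12 in the RefSeq annotation of GRCr8, and both are transcribed from the minus strand. Their upstream sequences are shown because these neighbours differed in response. The 250 bases before the start are chr12:39523090-39523339 for P2rx4 and chr12:39594923-39595172 for P2rx7, both from RefSeq on GRCr8 and both printed on the minus strand from 5′ to 3′. Capitals mark the GC box letters GGGCGG or their reverse complement.
P2rx4: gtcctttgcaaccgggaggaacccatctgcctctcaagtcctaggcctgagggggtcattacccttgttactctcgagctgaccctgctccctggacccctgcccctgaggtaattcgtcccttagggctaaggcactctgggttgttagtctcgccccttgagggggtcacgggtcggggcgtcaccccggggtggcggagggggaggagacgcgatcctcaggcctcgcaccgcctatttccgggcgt
P2rx7: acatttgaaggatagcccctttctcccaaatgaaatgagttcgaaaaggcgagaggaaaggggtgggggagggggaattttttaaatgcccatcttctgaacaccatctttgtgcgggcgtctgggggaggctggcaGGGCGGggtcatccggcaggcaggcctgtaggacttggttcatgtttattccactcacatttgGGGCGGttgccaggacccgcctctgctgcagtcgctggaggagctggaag
The P2rx7 window held the GC box letters at 113 to 108 and at 50 to 45 bases before the start, and the P2rx4 window held none. GC box letters were found in 30.5% of 33469 rat promoter windows of this length. The G and C bases made up 64.0% of the P2rx4 window and 56.0% of the P2rx7 window, against a median of 51.2% over all windows.

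The remaining P2Y receptors were divided. P2ry14, a receptor for UDP-glucose, read 1.32, 1.47 and 1.54 FPKM in sham and 2.29, 1.96 and 2.01 in SNI, from 47 to 78 estimated reads per library. Its log2 fold change was 0.53 (SE 0.152, adjusted p = 0.0159), with no overlap. P2ry1, an ADP receptor coupled to phospholipase C, read 8.79, 8.91 and 8.09 FPKM in sham and 7.67, 7.22 and 7.85 in SNI (log2 fold change -0.21, SE 0.06, adjusted p = 0.0153). P2ry2, a receptor for ATP and UTP, read 8.52, 8.28 and 9.17 FPKM in sham and 7.18, 6.68 and 8.05 in SNI (log2 fold change -0.28, SE 0.0815, adjusted p = 0.0174). The libraries of both genes lay lower in SNI without overlap, but by less than those of P2rx5 and P2rx6.

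These last 3 calls were the least secure. The call of P2ry1 was lost without SNI replicate 2 (adjusted p = 0.0755) and with DESeq2 (0.0612), in a range of 0.00888 to 0.0755 over 15 alternatives. That of P2ry2 was lost without sham replicate 3 (0.0641), SNI replicate 1 (0.0531) or SNI replicate 2 (0.0728), with DESeq2 (0.0521) and with all 9 libraries in a joint fit (0.0582), in a range of 0.00656 to 0.0728. That of P2ry14 was lost without SNI replicate 1 (0.0527) and with DESeq2 (0.0822), in a range of 0.00837 to 0.0822. The calls of P2rx2, P2rx5, P2rx6, P2rx7 and P2ry12 were made in all 15 alternatives.

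**Figure D2:**
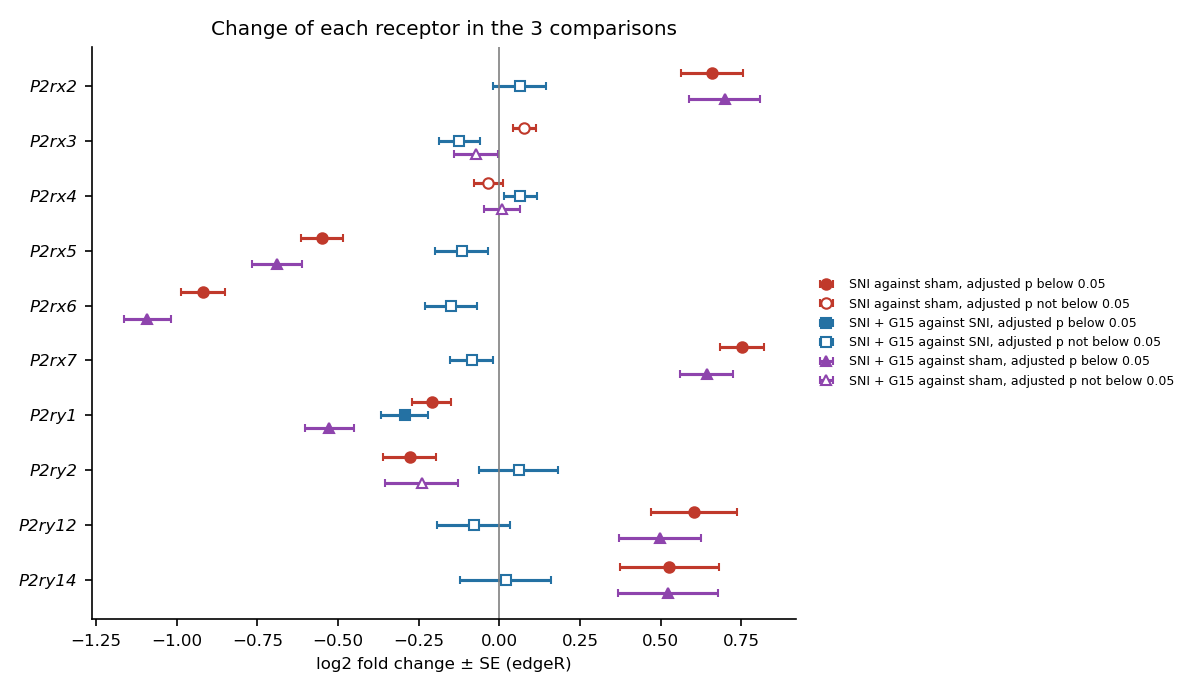
Log2 fold change with SE (horizontal axis, edgeR) of each receptor for SNI against sham (circles), SNI + G15 against SNI (squares) and SNI + G15 against sham (triangles), with filled symbols for an adjusted p below 0.05. The circles run from -0.92 for P2rx6 to 0.75 for P2rx7, and of the squares only that of P2ry1, at -0.29, is filled.

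Relative to the mean of P2rx4, P2rx7 and P2ry12, P2rx3 stood lower in SNI than in sham. The difference between P2rx3 and the mean of P2rx4, P2rx7 and P2ry12, in log2 CPM (counts scaled to library size), was 5.33, 5.48 and 5.23 in the sham libraries and 4.95, 5.04 and 4.98 in the SNI libraries. It was thus lower in all SNI libraries, by 0.358 between the group means of 5.35 ± 0.127 and 4.99 ± 0.0487 (SD, n = 3). P2rx7 and P2ry12 made up this shift, since P2rx3 and P2rx4 differed between the groups by 0.08 and -0.03 on the log2 scale. P2rx3 over P2rx7, in FPKM, fell from 38.5 ± 4.21 to 24.1 ± 0.889.

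Macrophage markers rose alongside. Of 17 macrophage markers, all tested, 16 were called higher and none lower in injured ganglia, where 23.3% and 22.4% of all tested genes were. The median log2 fold change of these markers was 1.15. Their summed FPKM ranged from 599 to 668 in sham and from 1310 to 1370 in SNI. Set per 1000 FPKM of these markers, P2rx7 fell from 6.29 ± 0.813 FPKM in sham to 4.98 ± 0.2 in SNI, P2ry12 from 3.5 ± 0.935 to 2.54 ± 0.0997, and P2rx4 from 33.6 ± 1.61 to 15.5 ± 0.419. The libraries of P2ry12 shared the value 2.65 between groups on this scale, and those of P2rx4 and P2rx7 did not overlap. The part of macrophage number in the rise of P2rx7 and P2ry12 was not tested.

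**Figure D3:**
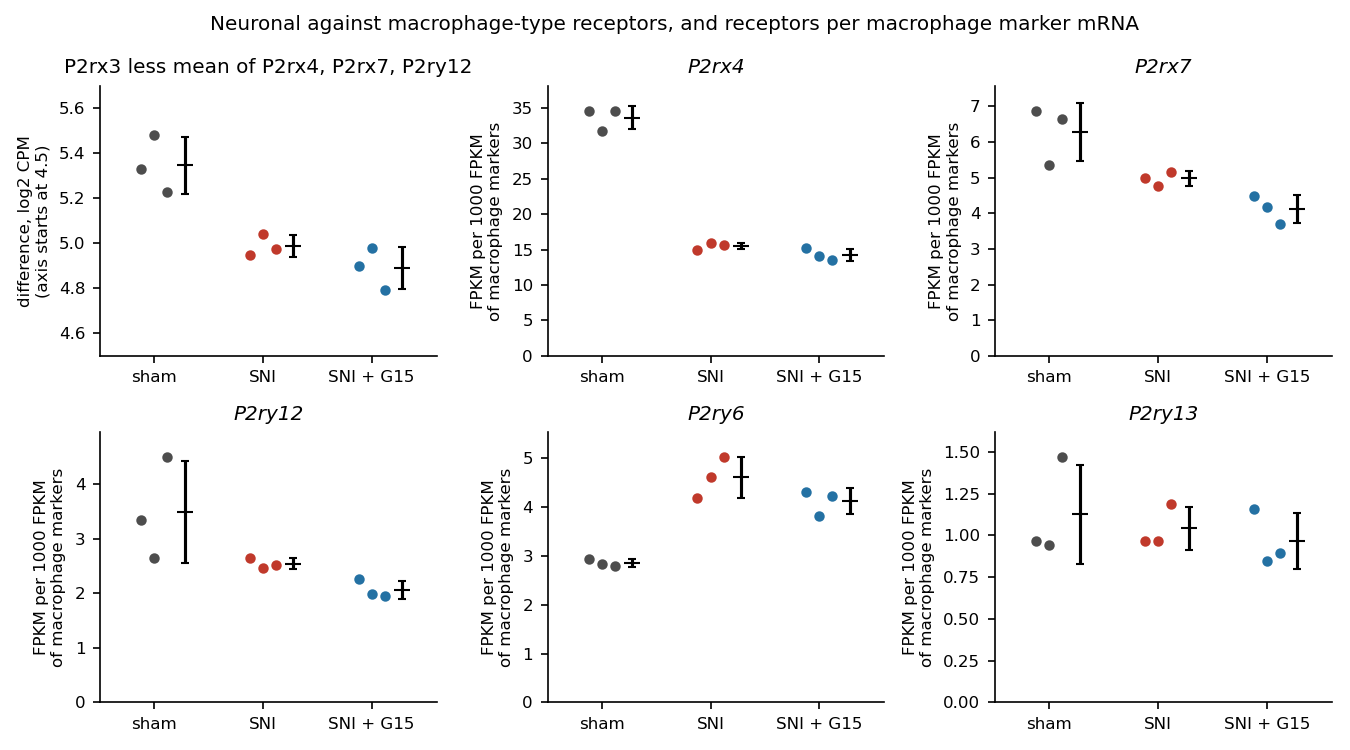
The first panel gives, for each library, P2rx3 less the mean of P2rx4, P2rx7 and P2ry12 (log2 CPM, axis from 4.5). The others give the FPKM of P2rx4, P2rx7, P2ry12, P2ry6 and P2ry13 per 1000 FPKM of macrophage markers (axis from 0). Points are libraries, and black marks are means with SD. P2rx4 per marker mRNA drops from 33.6 in sham to 15.5 in SNI, and P2ry6 rises from 2.85 to 4.6.

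Other cell types moved too, beside 23.3% of all tested genes called higher and 22.4% called lower. Of 7 microglia-associated markers, a list that holds P2ry12 itself, 4 of the 5 tested were called higher and 1 lower, and Siglech was at 0 in all sham libraries. For T cells the summed marker FPKM went from 15.8 to 17.2 in sham to 33.4 to 34.0 in SNI, and 4 of 7 tested markers were called higher. All 6 erythroid markers in the table were called higher, with summed FPKM of 97.3 to 101 in sham and 326 to 334 in SNI. Platelet markers, which bear on P2ry12 and P2ry1, summed to only 6.61 to 8.59 FPKM in sham and 11.2 to 12 in SNI, and Gp1bb was at 0 in all sham libraries. Of the 9 platelet markers only 2 were tested, of which 1 was called higher, and their median log2 fold change was -0.205. Among the 7 below the filter, 1 was called higher in a fit of all genes with a count.

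Neuronal and glial markers went down or were mixed, beside 23.3% of all tested genes called higher and 22.4% called lower. Of 14 DRG neuron markers 8 were called lower and 3 higher, and their summed FPKM went from 18800 to 19200 in sham to 16600 to 17000 in SNI. Among 15 markers of non-peptidergic nociceptors, the class in which P2rx3 is prominent, 10 were called lower and 2 higher, with a median log2 fold change of -0.35. P2rx3, which is not in that list, read 0.08 without a call, and the difference between it and the list was not tested. Schwann cell markers were called lower in 7 of 9 cases, with summed FPKM from 5390 to 5500 in sham and from 3020 to 3080 in SNI. Satellite glia markers, a list that holds Gja1 and Entpd2 of the purinergic lists below, were called higher in 4 and lower in 2 of 12. Endothelial markers were called higher in 3 and lower in 1 of 10, and skeletal muscle markers lower in 1 of the 5 tested. The part of these cell types in the receptor changes was not tested.

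Upstream sequences of further members follow, and no link between sequence and response was tested. The windows of P2rx6, the receptor with the widest fall, and P2ry1, the receptor called in all 3 comparisons, are shown with that of P2ry14, which rose. They lie at chr11:96954204-96954453 (minus strand), chr2:147391411-147391660 (plus strand) and chr2:145538511-145538760 (minus strand) of GRCr8, from RefSeq, each with the 250 bases before the start in the direction of transcription. Capitals mark GC box letters (GGGCGG) and CCAAT box letters (CCAAT) or their reverse complements.
P2rx6: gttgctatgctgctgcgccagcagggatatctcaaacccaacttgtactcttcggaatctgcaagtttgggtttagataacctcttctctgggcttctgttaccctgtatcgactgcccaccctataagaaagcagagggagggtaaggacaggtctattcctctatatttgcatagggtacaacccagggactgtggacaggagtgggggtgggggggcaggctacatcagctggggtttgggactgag
P2ry1: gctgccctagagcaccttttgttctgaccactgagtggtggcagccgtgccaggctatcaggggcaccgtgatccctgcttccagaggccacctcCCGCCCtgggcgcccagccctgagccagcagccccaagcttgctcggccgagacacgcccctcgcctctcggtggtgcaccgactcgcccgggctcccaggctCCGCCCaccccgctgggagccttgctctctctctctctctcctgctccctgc
P2ry14: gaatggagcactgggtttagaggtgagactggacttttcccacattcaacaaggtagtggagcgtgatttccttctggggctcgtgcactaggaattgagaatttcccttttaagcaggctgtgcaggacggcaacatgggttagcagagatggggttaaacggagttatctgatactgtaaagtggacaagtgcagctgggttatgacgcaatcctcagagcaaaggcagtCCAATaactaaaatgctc
The P2rx6 window held neither motif. The P2ry1 window held GC box letters at 155 to 150 and at 52 to 47 bases before the start, and the P2ry14 window held CCAAT at 18 to 14 bases before it. CCAAT letters occurred in 34.0% of all 33469 windows. On either strand, no window of the 7 receptors with an entry (P2rx3, with 2 windows, P2rx4, P2rx6, P2rx7, P2ry1, P2ry2 and P2ry14) held the AP-1 letters TGANTCA, the CRE letters TGACGTCA, the PU.1-type letters GAGGAAG, the C/EBP-type letters TTGCNNAA or the TATA box letters TATAAA. Across all windows these were found in 6.34%, 1.59%, 10.2%, 9.22% and 12.9%, in that order. The window of P2ry2, which fell after SNI like P2ry1, held GC box letters at 3 places. The second P2rx3 window held both GC box and CCAAT letters.

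The second comparison asked how G15 after injury changed the receptors. Of the 10, P2ry1 alone was called, and it was lower. This was 1 of 10 called lower, where 7.25% of all tested genes were called lower, and 0 of 10 called higher, where 7.98% were. With edgeR, no receptor other than P2ry1 had an unadjusted p below 0.05 in this comparison, and DESeq2 called none of the 10. Groups did not overlap for 2 of 10 receptors, P2ry1 and P2rx3, both lower, against 38.3% of all tested genes. The median log2 fold change was -0.083 over the receptors and 0.006 over all tested genes.

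P2ry1 read 6.25, 5.62 and 6.51 FPKM in SNI + G15 against 7.67, 7.22 and 7.85 in SNI. All SNI + G15 libraries were below all SNI libraries, which themselves were below sham. The log2 fold change was -0.29 (SE 0.0717, adjusted p = 0.0278), and it was -0.35 without SNI + G15 replicate 3 (adjusted p = 0.00964). The call of P2ry1 was lost with DESeq2 (0.0511), without SNI + G15 replicate 2 (0.0691), and without SNI replicate 1 (0.0915), replicate 2 (0.058) or replicate 3 (0.108). Over 15 alternatives the adjusted p of P2ry1 ranged from 0.00964 to 0.108, and 10 of them made the call.

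P2rx3 read 155.04, 155.17 and 129.05 FPKM in SNI + G15. SNI + G15 replicate 3 was the low library, and replicates 1 and 2 were within the range of sham. The log2 fold change against SNI was -0.13 (SE 0.0634, adjusted p = 0.206), and without SNI + G15 replicate 3 it was -0.05 (adjusted p = 0.268), in a range of 0.143 to 0.384 over the alternatives.

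None of the receptors that injury had raised was called in SNI + G15 against SNI. P2rx2 read 9.59, 9.01 and 7.91 FPKM (log2 fold change against SNI 0.06, SE 0.0819, adjusted p = 0.629), and its lowest library was SNI + G15 replicate 3. P2rx7 read 6.62, 6.42 and 5.7 FPKM (-0.09, SE 0.0661, adjusted p = 0.399), P2ry12 3.35, 3.05 and 3.01 FPKM (-0.08, SE 0.114, adjusted p = 0.664) and P2ry14 1.88, 1.94 and 2.28 FPKM (0.02, SE 0.141, adjusted p = 0.94). In each of these 4 genes the SNI + G15 libraries overlapped with SNI and not with sham. Without SNI + G15 replicate 3 the log2 fold change against SNI was 0.133 for P2rx2, -0.03 for P2rx7, -0.058 for P2ry12 and -0.042 for P2ry14, again with no call.

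Of the receptors that injury had lowered, P2rx6, P2rx5 and P2ry2 were not called against SNI, unlike P2ry1. P2rx6 read 7.14, 7.22 and 7.76 FPKM (log2 fold change against SNI -0.15, SE 0.0809, adjusted p = 0.233) and P2rx5 4.86, 4.94 and 5.57 FPKM (-0.12, SE 0.0825, adjusted p = 0.357). P2ry2 read 6.54, 8.99 and 7.07 FPKM, and its SNI + G15 replicate 2 lay within the sham range (0.06, SE 0.122, adjusted p = 0.768). P2rx4, which was not called after injury, read 22.51, 21.60 and 20.76 FPKM (0.07, SE 0.0509, adjusted p = 0.407). Without SNI + G15 replicate 3 the values were -0.206 for P2rx6, -0.189 for P2rx5, 0.097 for P2ry2 and 0.087 for P2rx4. None of them was called, and the lowest adjusted p was 0.119, for P2rx6.

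The difference of P2rx3 from the macrophage-type mean was 4.90, 4.98 and 4.8 in the SNI + G15 libraries, a mean of 4.89 ± 0.093 (SD, n = 3). It was 0.097 lower than in SNI, with overlap, and 0.049 lower without SNI + G15 replicate 3. Among all tested genes 7.98% were called higher than in SNI and 7.25% lower. Macrophage markers were called higher than in SNI in 4 of 17 cases and lower in 1, and their summed FPKM of 1480 to 1540 lay above the SNI range. All 6 erythroid markers were called lower, at 194 to 228 summed FPKM, and 6 of 9 Schwann cell markers were called higher, at 3240 to 3380. Of the non-peptidergic nociceptor markers 6 of 15 were called lower and 1 higher, with summed FPKM of 654 to 681 against 685 to 689 in SNI. The part of these shifts in the P2ry1 change was not tested.

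The third comparison set SNI + G15 against sham. P2rx2, P2rx7, P2ry12 and P2ry14 were called higher and P2rx5, P2rx6 and P2ry1 lower, 4 and 3 of 10, where 21.4% and 21.9% of all tested genes were called higher and lower. Groups did not overlap for 7 of 10 receptors, against 52.9% of all tested genes. P2rx6 had the widest change, with a log2 fold change of -1.09 (SE 0.0733, adjusted p = 2.29e-06), or -1.13 without SNI + G15 replicate 3. P2ry1, at -0.53 (SE 0.0767, adjusted p = 0.000371), was further from sham than in SNI without G15. The values of P2rx5 (-0.69, SE 0.0772), P2rx2 (0.70, SE 0.11), P2rx7 (0.64, SE 0.0809) and P2ry12 (0.50, SE 0.127) were called in all 15 alternatives. Without SNI + G15 replicate 3 they were -0.749 for P2rx5, 0.781 for P2rx2, 0.71 for P2rx7 and 0.532 for P2ry12, and P2ry1 was at -0.569.

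P2ry14, at a log2 fold change of 0.52 (SE 0.154, adjusted p = 0.0201), lost its call without sham replicate 1 (0.056), SNI + G15 replicate 2 (0.0523) or SNI + G15 replicate 3 (0.054) and with DESeq2 (0.0833), in a range of 0.00816 to 0.0833. P2ry2 was not called (-0.24, SE 0.113, adjusted p = 0.111) except without SNI + G15 replicate 2 (-0.38, adjusted p = 0.00929), in a range of 0.00929 to 0.354. P2rx3 differed from sham by -0.07 (SE 0.0679, adjusted p = 0.427), and by 0.018 without SNI + G15 replicate 3 (adjusted p = 0.785), in a range of 0.311 to 0.785. P2rx4 differed by 0.01 (SE 0.0571, adjusted p = 0.923). Without SNI + G15 replicate 3 the values were 0.474 for P2ry14, -0.192 for P2ry2 and 0.042 for P2rx4.

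**Figure D4:**
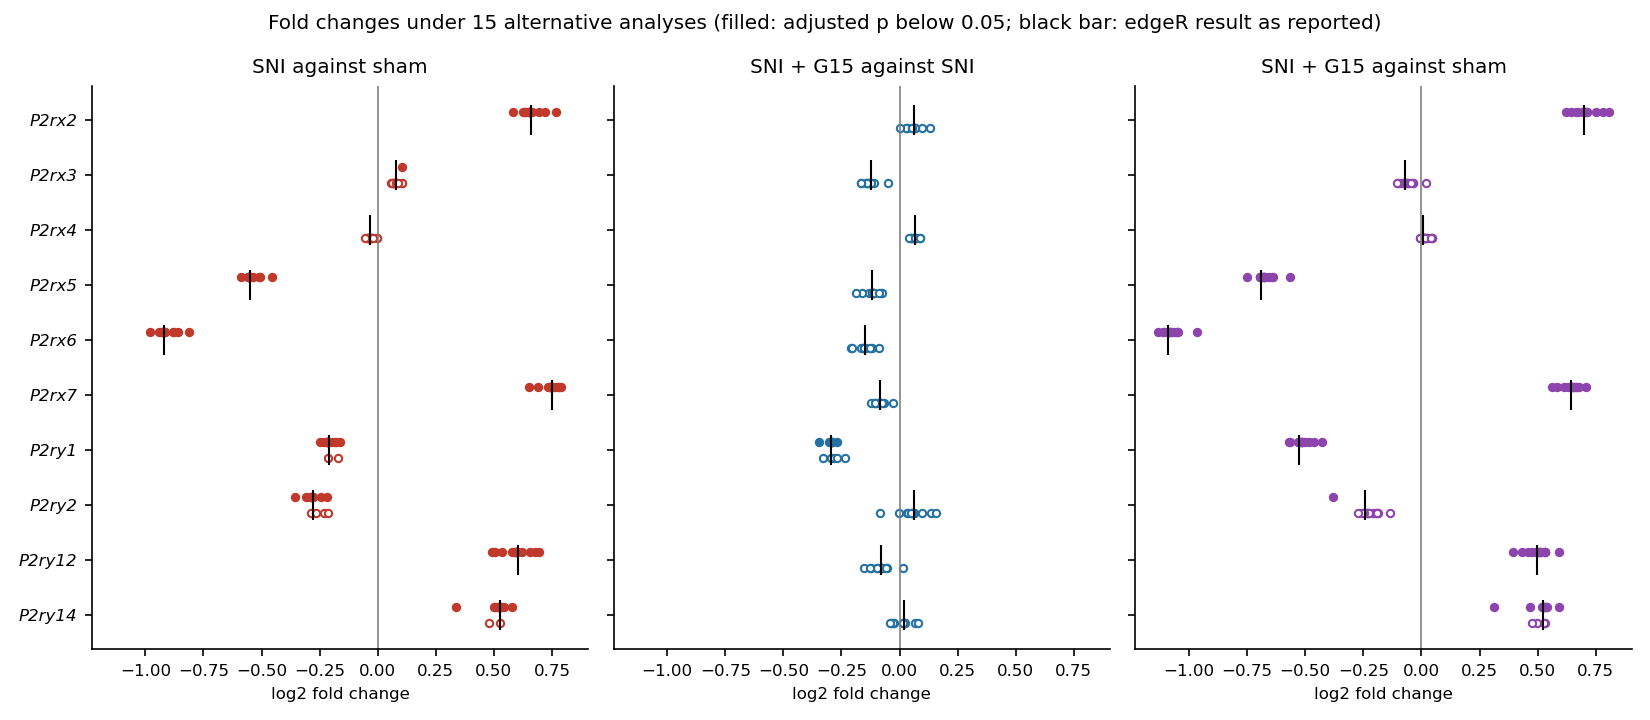
Log2 fold change (horizontal axis, shared) of each receptor in the 3 comparisons under 15 alternative analyses, with filled points above the row line for an adjusted p below 0.05 and open points below it for the rest. The black bar is the reported edgeR value. P2rx2, P2rx5, P2rx6, P2rx7 and P2ry12 keep filled points only in both comparisons with sham, and P2ry1 against SNI holds 10 filled and 5 open points.

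The other P2 receptor genes in the table were few, and the largest rise of the family was among them. Of 5 such genes, P2ry6 and P2ry13 passed the filter, and both rose after SNI. P2ry6, a UDP receptor of phagocytes and the neighbour of P2ry2 in RefSeq, had 1.78 ± 0.101 FPKM in sham, 6.19 ± 0.427 after SNI and 6.24 ± 0.337 with G15 (SD, n = 3). Its log2 fold change after SNI was 1.79 (SE 0.104, adjusted p = 3.07e-07), while P2ry2 beside it fell. P2ry13, an ADP receptor and the neighbour of P2ry12 in RefSeq, went from 0.700 ± 0.166 to 1.40 ± 0.145 FPKM (log2 fold change 0.97, SE 0.2, adjusted p = 0.00263). Against SNI, G15 moved them by 0.01 (adjusted p = 0.933) and 0.08 (adjusted p = 0.772). Per 1000 FPKM of macrophage markers, P2ry6 rose from 2.85 ± 0.0769 in sham to 4.6 ± 0.416 in SNI without overlap, whereas P2ry13 (1.13 ± 0.296 and 1.04 ± 0.131) overlapped. P2rx1, P2ry4 and P2ry10 were below the filter, at no more than 0.69 FPKM in any library, and none was called in a fit of all genes with a count.

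Genes of ATP release were split in the first comparison. Of 16 listed and 11 tested, 5 were called higher and 2 lower after SNI, with a list median of 0.079 and 0.001 for all tested genes. The shares of all tested genes called were 23.3% higher and 22.4% lower. Panx1, the pannexin channel that lets ATP out of cells, rose from 7.42 ± 0.404 to 14.5 ± 0.865 FPKM (log2 fold change 0.94, SE 0.0631, adjusted p = 8.72e-07). Panx2, its relative of neurons, fell from 53.9 ± 2.25 to 38.8 ± 1.49 FPKM (-0.51, SE 0.0465, adjusted p = 8.86e-06). Ano6, a scramblase linked to P2X7 signalling, rose by 0.51 (SE 0.0437, adjusted p = 5.09e-06), and Gja1, connexin 43 of satellite glia, by 0.32 (SE 0.0507, adjusted p = 0.000504). Slc17a9, the vesicular nucleotide transporter, was below the filter, at 0.270 ± 0.0721 FPKM in sham and 0.503 ± 0.0351 in SNI, and was not called (0.61, SE 0.293, adjusted p = 0.144). Panx3, also below the filter, went the other way, from 0.530 ± 0.0361 to 0.203 ± 0.0404 FPKM, on at most 25 estimated reads per library. Of the 5 genes of this list below the filter, 0 were called higher and 1 lower after SNI in a fit of all genes with a count.

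With G15, 1 gene of the 11 tested in this list was called higher than in SNI and 3 lower. Of all tested genes, 7.98% were called higher and 7.25% lower. Gjb1, connexin 32 of Schwann cells, had fallen after SNI (8.29 ± 0.31 to 6.22 ± 0.378 FPKM) and was at 9.32 ± 0.765 FPKM in SNI + G15 (log2 fold change 0.58, SE 0.0845, adjusted p = 0.00282). Lrrc8b, Lrrc8c and Lrrc8d, subunits of the volume-regulated anion channel, were lower. Lrrc8b was at 15.7 ± 0.577 FPKM in SNI and 12.3 ± 0.516 in SNI + G15 (-0.32, SE 0.0434, adjusted p = 0.00201), and it was called in all 15 alternatives. Lrrc8c (-0.20, adjusted p = 0.0303) and Lrrc8d (-0.18, adjusted p = 0.0236) both lost their call without any 1 of the 3 SNI libraries or without SNI + G15 replicate 2, and Lrrc8d also without SNI + G15 replicate 1 (adjusted p over the alternatives 0.0238 to 0.131 and 0.00563 to 0.106). The count called lower was 1 in place of 3 without any 1 SNI library. Against sham, 5 of 11 were called higher and 3 lower, where 21.4% and 21.9% of all tested genes were. Those called in the list included Panx1 (1.07, SE 0.0755), Panx2 (-0.67, SE 0.0661), Lrrc8b (-0.38, SE 0.0534) and Gja1 (0.37, SE 0.0579).

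Of the enzymes listed for the breakdown of extracellular nucleotides, 14 listed symbols and 12 tested, 3 were called higher and 6 lower after SNI. The list also holds the intracellular Entpd4, so its counts and median are not those of cell-surface enzymes alone. Among all tested genes 23.3% were called higher and 22.4% lower. The list median was -0.126, against 0.001 over all tested genes. Entpd2, an ecto-ATPase of satellite glia, rose from 49.2 ± 1.3 to 87.2 ± 2.04 FPKM (log2 fold change 0.79, SE 0.0401, adjusted p = 1.04e-07). Entpd3, the ecto-ATPase of nociceptors, fell from 34.4 ± 0.406 to 23.7 ± 0.381 FPKM (-0.57, SE 0.0399, adjusted p = 1.17e-06). Acpp, prostatic acid phosphatase, which makes adenosine at nociceptor membranes, fell from 66.5 ± 0.711 to 48.1 ± 0.236 FPKM (-0.49, SE 0.0394, adjusted p = 3.18e-06). Entpd4, an intracellular member of the family, fell by 0.43 on the log2 scale (SE 0.0392, adjusted p = 7.99e-06).

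In this list G15 was followed by a clear difference in Enpp3. Of 12 tested, 3 were called higher than in SNI and 1 lower, where 7.98% and 7.25% of all tested genes were. Enpp3, a nucleotide pyrophosphatase, read 5.51 ± 0.248 FPKM in sham, 6.02 ± 0.289 in SNI and 10.5 ± 0.689 in SNI + G15. Its log2 fold change against SNI was 0.82 (SE 0.0708, adjusted p = 0.000206), called in all 15 alternatives and 0.77 without SNI + G15 replicate 3, whereas SNI against sham gave 0.10 (adjusted p = 0.279). Nt5e, the ecto-5′-nucleotidase CD73 that makes adenosine, was at 4.0 ± 0.373 FPKM in SNI and 5.35 ± 0.261 in SNI + G15 (0.43, SE 0.0838, adjusted p = 0.0108), and lost its call without SNI replicate 3 (0.0523, the highest of a range from 0.0104). The small differences of Entpd2 (0.19, adjusted p = 0.0373) and Entpd3 (-0.18, adjusted p = 0.0246) were called in 7 and 9 of 15 alternatives, with adjusted p of 0.00264 to 0.142 and 0.0127 to 0.101. Each was lost without any 1 SNI library or without SNI + G15 replicate 2, and Entpd2 also without SNI + G15 replicate 1, and the 3 called higher became 1 without SNI replicate 3. The count called lower was 0 without any 1 SNI library or SNI + G15 replicate 2, and 2 without SNI + G15 replicate 1. Estimated counts of Entpd2 and Nt5e were not whole in any library. Against sham, 4 of 12 were called higher and 6 lower, where 21.4% and 21.9% of all tested genes were. In that comparison Entpd2 was at 0.96 (SE 0.0568), Enpp3 at 0.89 (SE 0.0762), Entpd3 at -0.78 (SE 0.0503) and Entpd4 at -0.60 (SE 0.0499).

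Adenosine receptors and transporters were called higher in 3 and lower in 5 of 11 tested after SNI, and 3 became 1 without SNI replicate 2. Among all tested genes 23.3% were called higher and 22.4% lower. The list median was -0.108, against 0.001 over all tested genes. Slc29a4, an equilibrative transporter, rose from 14.1 ± 0.0361 to 20.8 ± 0.444 FPKM (log2 fold change 0.53, SE 0.0461, adjusted p = 5.62e-06). Adora2b, a Gs-coupled adenosine receptor, fell from 3.71 ± 0.06 to 2.26 ± 0.155 FPKM (-0.74, SE 0.112, adjusted p = 0.000335). Adora1, the inhibitory receptor of sensory neurons, fell by 0.29 (SE 0.0533, adjusted p = 0.00138) and Adk, adenosine kinase, by 0.25 (SE 0.0442, adjusted p = 0.00102) on the log2 scale. With G15 against SNI, 0 of the 11 were called by edgeR, DESeq2 or limma-trend, and 1, Slc29a4, had an unadjusted p below 0.05 in edgeR. In the edgeR fit, 7.98% of all tested genes were called higher and 7.25% lower. Against sham, 2 were called higher and 5 lower, where 21.4% and 21.9% of all tested genes were. Those called in the list included Slc29a4 (0.34, SE 0.0637), Adora2a (0.38, SE 0.0864), Adora2b (-0.65, SE 0.141) and Adora1 (-0.38, SE 0.0799).

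Among partners and downstream genes of the receptors, 11 of 20 were called higher and 3 lower after SNI. The shares of all tested genes called were 23.3% higher and 22.4% lower. The list median was 0.214, against 0.001 over all tested genes. Bdnf, the neurotrophin released downstream of P2X4 in microglia and also made by sensory neurons, went from 3.30 ± 0.304 to 9.62 ± 0.566 FPKM (log2 fold change 1.54, SE 0.0704, adjusted p = 4.84e-08) while P2rx4 itself was not called. Irf8, a transcription factor of myeloid cells that promotes P2rx4 and P2ry12 expression in microglia, went from 2.54 ± 0.248 to 6.56 ± 0.311 FPKM (1.34, SE 0.0846, adjusted p = 5.68e-07). Ctss, the protease cathepsin S whose release P2X7 drives, went from 32.4 ± 0.907 to 64.8 ± 2.89 FPKM (0.97, SE 0.0507, adjusted p = 1.33e-07). Vsnl1, visinin-like protein 1, which regulates P2X2 trafficking, fell by 0.60 on the log2 scale (SE 0.0446, adjusted p = 1.94e-06). With G15, 0 were called higher than in SNI by edgeR, DESeq2 or limma-trend, with 1, Nlrp3, higher at an unadjusted p below 0.05. In the edgeR fit, 7.98% of all tested genes were called higher and 7.25% lower. Without SNI + G15 replicate 1 the counts of this list were 1 higher and 2 lower. Vsnl1, whose estimated counts were not whole in any library, was called lower (-0.20, SE 0.0423, adjusted p = 0.0158), a call lost without any 1 SNI library, with adjusted p between 0.00384 and 0.0803 over the alternatives. Against sham, 11 of 20 were called higher and 5 lower, where 21.4% and 21.9% of all tested genes were. In that comparison Bdnf was at 1.5 (SE 0.0835), Irf8 at 1.30 (SE 0.0973), Ctss at 1.05 (SE 0.0939) and Vsnl1 at -0.82 (SE 0.0557).

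**Figure D5:**
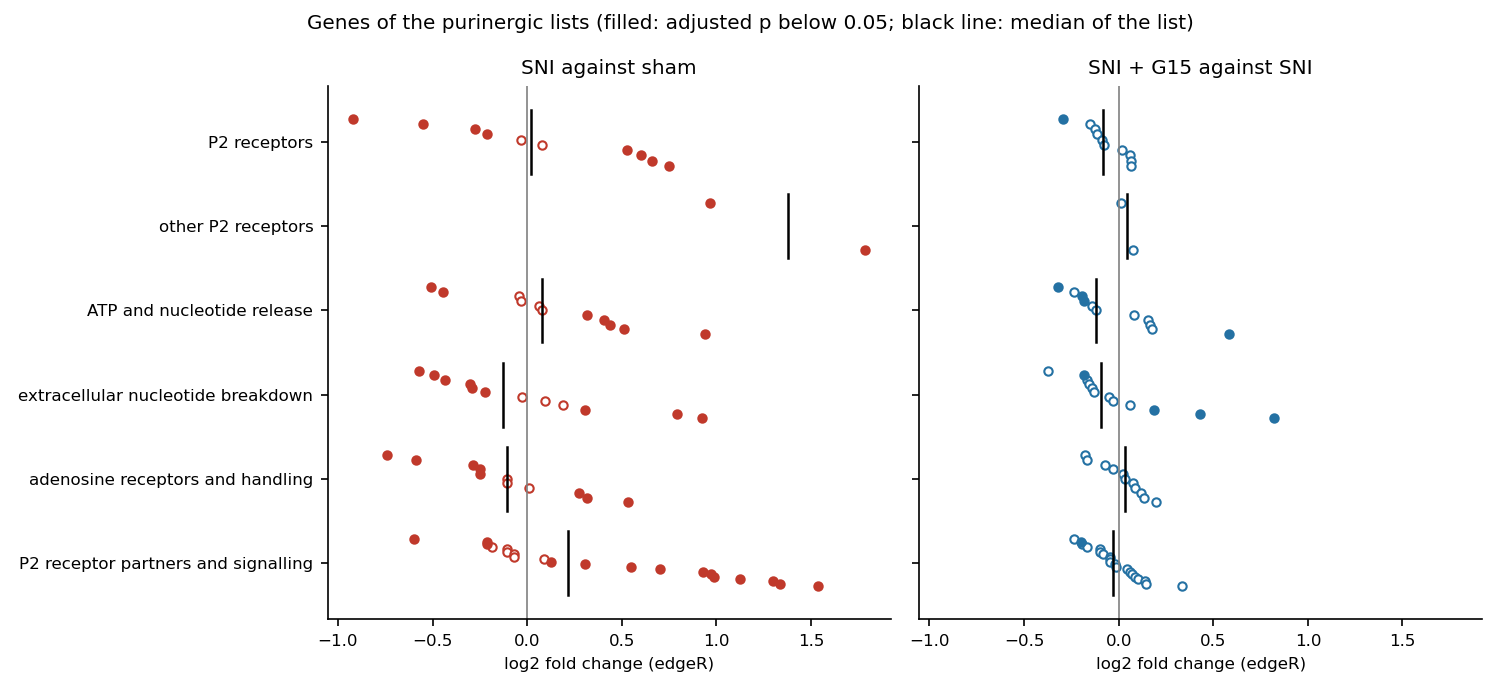
Log2 fold change (horizontal axis, shared by the panels) of every tested gene of 6 purinergic lists, for SNI against sham on the left and SNI + G15 against SNI on the right. Filled points have an adjusted p below 0.05, and the black line is the median of the list. After SNI the points spread to both sides, from -0.92 for P2rx6 to 1.79 for P2ry6, and with G15 most lie close to 0, with Enpp3 at 0.82.

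The deposited transcript values show which RefSeq models carry the receptor signal. P2rx4, P2ry1 and P2ry2 had a single transcript each. P2rx3 had a main transcript that held 82.4 to 92.0% of its FPKM in sham libraries, 85.4 to 92.2% after SNI and 80.6 to 96.5% with G15, so that its use did not separate the groups. The main transcript of P2rx7 held 96.1 to 100% in sham libraries, 88.9 to 94.7% after SNI and 82.8 to 92.5% with G15, and the second, predicted transcript lay between 0 and 0.14 FPKM in sham, 0.36 and 0.72 in SNI, and 0.48 and 1.14 with G15. P2rx2 was divided over 7 transcripts, of which the curated transcript held between 0.606 and 65.9% depending on the library, and libraries of the same group differed widely. A predicted P2rx2 transcript held 7.34 to 35.8% in sham libraries, 38.8 to 68.7% after SNI and 38.4 to 54.2% with G15. In FPKM it lay between 0.34 and 1.82 in sham, 3.46 and 5.67 in SNI, and 3.62 and 4.89 with G15. Its sham libraries thus did not overlap with the others. Transcripts of P2rx5, P2rx6 and P2ry12 also varied between libraries of the same group, with 47.5 to 89.5% of P2rx5 in its main transcript over the SNI libraries. No transcript was tested, and depth limits how well such similar transcripts can be told apart.

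The genes whose pattern was most like that of P2rx3, P2rx4, P2rx7 or P2ry12 were different for each of the 4. Likeness was the Pearson correlation of log2 CPM over 9 libraries, which fall into 3 groups and share that grouping, and it is a description. For P2rx7 the 5 closest were Asap2 (0.997), Stat3 (0.996), Cemip (0.994), C2cd2 (0.993) and Irf5 (0.993). For P2ry12 they were Mgat2 (0.978), C3ar1 (0.976), Pram1 (0.975), Trib1 (0.966) and Ago1 (0.963). For P2rx3 the 5 closest included Mtpn (0.952), Gramd2a (0.95), Ly6c (0.949) and Pdcl (0.931). For P2rx4 they were Dync2li1 (0.963), Gucy1b1 (0.921), Spg21 (0.89), Prickle4 (0.89) and Ogg1 (0.884). No gene was shared by these lists of 5.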

How the data were processed

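RNA was sequenced from 3 sham, 3 SNI and 3 SNI + G15 DRG samples (150 bp paired reads). The authors deposited FPKM per gene, summed over transcripts, and estimated counts that need not be whole (70.9 to 72.0% of gene values per library were, within 0.005). The deposited columns named for a control were taken as sham, the group left by the other names. The submitters' processing notes name the mouse builds GRCm38 and mm10, although the files use rat RefSeq transcripts, so no coordinates of theirs are given. The extraction protocol in the labels names another cell type and kit than the study's methods. The aligner is not given in the sources used here.

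After rounding of the estimated counts, each pair of groups was compared in edgeR 4.0.16 (R 4.3.3; quasi-likelihood test, TMM scaling) over the 14305 genes that reached an FPKM of 1 in some library, with Benjamini-Hochberg adjustment over all of them. Genes below the filter were read from a second fit without that filter. The pipeline was run on simulated counts in which 200 of 14305 genes changed by 1 on the log2 scale, up or down. For SNI against sham, edgeR recovered 89% of them with 26 false calls. It recovered 88.5% with 11 false calls for SNI + G15 against SNI, and 92.5% with 16 for SNI + G15 against sham. Those counts were drawn from a model fitted to these data, so the run cannot test the assumptions of that model. Alternatives used DESeq2 1.42.0, limma 3.58.1 on log2(FPKM + 1) or log2(FPKM + 0.1), RLE and upper-quartile scaling, other filters, a joint fit of 9 libraries, a replicate block and each library left out. Log2 CPM used a prior count of 2. The members, lists and tests were chosen with earlier results of these data known.

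Named genes are all members, at most 4 called genes of each list per comparison with the smallest adjusted p, and the 5 genes most like P2rx3, P2rx4, P2rx7 and P2ry12, of which 1 for P2rx3 is not reported here. Slc17a9 and the genes below the filter were added after their values were seen. Promoter windows are from RefSeq (GRCr8) and matched 7 of 10 members. Of 20194 gene IDs, 18599 matched the RefSeq gene table, used for neighbours only. Deposited TPM values and group averages were not used.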

Additional observations from a re-analysis of the deposited data

How the results depend on the processing

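Directions and calls of P2rx2, P2rx5, P2rx6, P2rx7 and P2ry12 against sham held under all 15 alternatives. With DESeq2, 2 receptors were called lower after SNI in place of 4, and 0 in place of 1 with G15 against SNI. Leaving out single libraries gave 2 to 4 called lower after SNI, and 0 to 1 with G15 against SNI. Signs changed only for values that were not called. With limma-trend, P2ry14 with G15 against SNI was -0.026 at a pseudocount of 1 and -0.037 at 0.1. Without single libraries the lowest and highest values against SNI were -0.085 and 0.157 for P2ry2, -0.151 and 0.016 for P2ry12 and -0.042 and 0.081 for P2ry14, and against sham -0.107 and 0.018 for P2rx3 and -0.008 and 0.042 for P2rx4. The cause was not tested. The difference of P2rx3 from the macrophage-type mean was at least 5.229 in all sham libraries and at most 5.043 in all others. Leaving out any single library therefore kept its direction against sham, although its size moved with the libraries kept.

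No pairing of samples by replicate number was seen, although 3 libraries per group are few to show one. After the group mean of each gene was subtracted from log2 CPM, same-numbered libraries correlated between -0.125 and 0.092. With the replicate number as a block, 725 genes were higher and 567 lower with G15 against SNI, in place of 1142 and 1037. P2ry1 stayed called in the block (-0.295, adjusted p = 0.0341, in a range of 0.00964 to 0.108), as did the other receptors called. In the same comparison, leaving out 1 SNI library gave 514 to 626 genes higher and 379 to 472 lower. Depth limits P2ry14, with 47 to 78 estimated reads per library, and P2ry12, with 76 to 146.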

Other observations

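Adora3, an adenosine receptor gene whose estimated counts were not whole in any of the 9 libraries, was picked out after its values were seen. It read 0.20, 0.15 and 0.25 FPKM in sham, 0.47, 0.34 and 0.29 in SNI and 0.03, 0.04 and 0.08 in SNI + G15, from at most 15.5 estimated reads per library. In a fit of all genes with a count it was lower in SNI + G15 than in SNI (log2 fold change -2.79, SE 0.522, adjusted p = 0.0104 in edgeR), a value that rests on few reads.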
